A study of Homo sapiens with 6 samples.

Results

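The tumour necrosis factor (TNF) superfamily genes named TNFSF (ligands) and TNFRSF (receptors) were followed in SW480, a colon cancer cell line with mutant p53, after transfection with a plasmid that encodes MDM4. The members were all 33 rows of the expression table whose symbol begins with TNFSF or TNFRSF, 12 ligand rows and 21 receptor rows among 19225 genes. The 6 libraries were 3 control and 3 MDM4 libraries numbered 1 to 3. Cells of both groups were labelled as plasmid-transfected tumour cells with mutant p53, and the transfection was transient, and the share of cells that carried the plasmid is not given in the sources used here. The values were FPKM, in which read counts are divided by transcript length and library depth, and a gene was taken as expressed when its mean over the 6 libraries was at least 0.5 FPKM. With this minimum, 21 members were expressed (4 ligands and 17 receptors), 9 were detected at a lower level, and 3 were at 0 in every library.

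TNF superfamily ligands are mostly membrane-bound trimers, and their receptors are single-pass membrane proteins. Receptors with a cytoplasmic death domain recruit adaptors such as FADD and TRADD and can activate caspases. Decoy and soluble receptors bind ligands without passing on a death signal, and the other receptors recruit TRAF adaptors and act mainly through NF-kB. In epithelial tumour cells the family is best known for apoptosis through TRAIL (the product of TNFSF10) and its receptors, and for ligands that engage receptors on T cells.

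Sequence stretches are shown for the genes to which the results return. A RefSeq promoter window was the 250 bases before the start of the gene (build GRCh38.p14), written on the strand of the gene. The core of the interferon response element was searched in it as GAAANNGAAA on both strands. Of the 13 expressed members with a window, TNFSF10, TNFSF9 and TNFRSF1B were the 3 whose window held it. Capitals mark the match, which lay 187 bases before the start in TNFSF10, 194 before the start in TNFSF9 and 10 before the start in TNFRSF1B.
TNFSF10, chr3:172523431-172523680, minus strand: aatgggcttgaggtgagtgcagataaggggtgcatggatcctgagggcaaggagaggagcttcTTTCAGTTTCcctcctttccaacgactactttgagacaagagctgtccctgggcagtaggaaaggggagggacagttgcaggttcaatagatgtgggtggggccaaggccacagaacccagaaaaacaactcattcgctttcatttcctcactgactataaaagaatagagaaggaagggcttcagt
TNFSF9, chr19:6530776-6531025, plus strand: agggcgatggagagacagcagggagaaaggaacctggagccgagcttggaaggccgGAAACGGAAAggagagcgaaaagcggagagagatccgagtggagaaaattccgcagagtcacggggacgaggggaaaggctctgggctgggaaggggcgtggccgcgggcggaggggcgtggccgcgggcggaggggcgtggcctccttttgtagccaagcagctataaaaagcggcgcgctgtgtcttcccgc
TNFRSF1B, chr1:12166741-12166990, plus strand: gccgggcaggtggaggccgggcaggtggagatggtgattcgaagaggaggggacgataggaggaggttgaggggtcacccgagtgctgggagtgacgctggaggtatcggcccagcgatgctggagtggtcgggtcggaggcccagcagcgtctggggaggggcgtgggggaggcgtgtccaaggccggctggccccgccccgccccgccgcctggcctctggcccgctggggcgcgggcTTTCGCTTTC
Windows were found for 21 members, 13 of them expressed, and the interferon core was in those of 4 members, the fourth being TNFSF13B. Members without a window were not searched, and nothing is stated here on the promoter of TNFRSF10D. Over all promoter windows of the same length, 1061 of 35116 (3.02%) held it. A second motif, GGGNNTTTCC on both strands, which covers part of the known NF-kB sites, was in the window of 1 member, TNFRSF9, and in 1.73% of all windows. For TNFSF18, whose transcript the study measured by quantitative PCR, the designed primers are given in lower case, since the gene carried very few reads here.
Forward primer: accctcaaaatggcaaatggc
Reverse primer: gtagtttgcattgggagccac
Both primers matched exon 3 of 3 of the TNFSF18 transcript in the GENCODE annotation of GRCh38, on the minus strand of chromosome 1, at positions 173041686 to 173041706 and 173041580 to 173041600. All 21 bases of each primer lay in coding sequence, and the product was 127 bases.

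MDM4 itself, the check of the labels, was at 6.35, 7.09 and 5.13 FPKM in control replicates 1, 2 and 3 and at 188, 185 and 56.3 FPKM in the MDM4 libraries. The third MDM4 library therefore held less MDM4 transcript than the other two, and still more than any control library. The epithelial markers EPCAM, KRT8, KRT18 and KRT19 were high in every library, the lowest of their values being 156 FPKM. The other epithelial markers were lower, CDH1 at 19.6 to 23.6 FPKM, CDX2 at 9.99 to 14.2 FPKM and VIL1 at 1.88 to 4.08 FPKM. The summed level of all 7 epithelial markers, most of it from keratins, ran from 4221 to 4902 FPKM. The 5 blood cell markers summed to between 0.576 and 1.46 FPKM and the 3 fibroblast markers to between 1.61 and 3.83 FPKM. Among them CD14 (mean 0.574 FPKM) and COL1A1 (mean 2.55 FPKM) met the expression minimum, and COL1A1 held most of the fibroblast sum. The leukocyte marker PTPRC was at 0 in 3 libraries, and the endothelial marker PECAM1 was at 0 in 5 of the 6 libraries. Libraries held 32772636 to 44361140 reads as recovered from the FPKM steps. A lower level in bulk RNA cannot tell fewer cells that express a gene from less RNA per cell.

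The receptors were expressed over a wide range and most ligands were low. On the per-length FPKM scale, the highest member was TNFRSF12A, the receptor of TNFSF12, with a mean of 149 FPKM over the 6 libraries. It was followed by the decoy receptor TNFRSF6B (79.7 FPKM), by TNFRSF1B (53.0 FPKM), and by the death receptors TNFRSF10B (41.7 FPKM) and TNFRSF1A (36.9 FPKM). All 5 death receptors and all 4 decoy or soluble receptors were expressed, as were 8 of the 12 TRAF-binding receptors and 4 of the 11 ligands outside the read-through transcript. The summed level of the 4 expressed ligands averaged 38.4 FPKM, against 135 FPKM for the death receptors, 120 FPKM for the decoy or soluble receptors and 229 FPKM for the TRAF-binding receptors. Several expressed receptors had a known TNFSF ligand at or near 0, among them TNFRSF11A and TNFRSF11B (TNFSF11 at 0 in every library) and TNFRSF25 (TNFSF15 at a mean of 0.0967 FPKM). TNFRSF11B also binds TNFSF10, which had a mean of 7.62 FPKM.

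**Figure D1:**
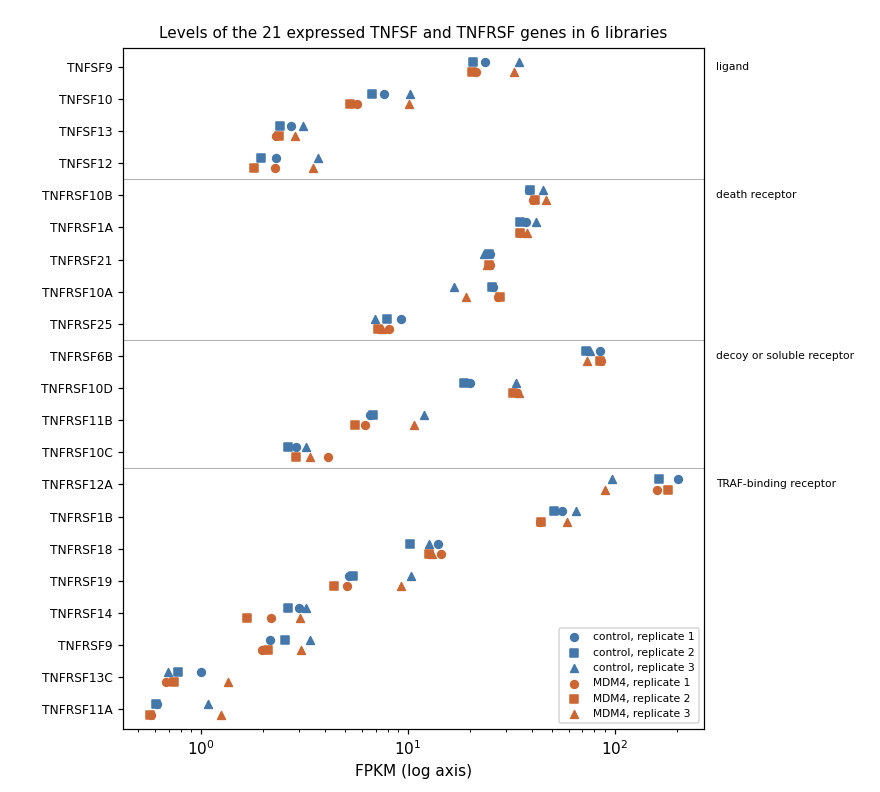
FPKM (log axis) of the 21 expressed members in each library, grouped by role. Blue marks the control and orange the MDM4 libraries, and circles, squares and triangles are replicates 1, 2 and 3. No member has all of its orange points on one side of all of its blue points.

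On the FPKM scale the 4 expressed ligands were all a little lower with MDM4 in every same-numbered pair of libraries. These differences did not pass the test. Some were very small, with ratios of MDM4 to control of 0.989 for TNFSF10 in replicate 3 and 0.990 for TNFSF12 in replicate 1. The summed FPKM of a library ran from 389031 to 404970, so the sign of such small differences depends on how libraries are scaled. TNFSF10, which encodes TRAIL, was at 7.65, 6.71 and 10.2 FPKM in control replicates 1, 2 and 3 and at 5.71, 5.30 and 10.1 FPKM with MDM4. The MDM4 libraries 1 and 2 were lower than every control library, and replicate 3 was the highest of each group, so the groups overlapped. The log2 difference was -0.26 (SE 0.27, 95% interval -0.88 to 0.36, n = 3 and 3 libraries), with adjusted p = 0.99993 in limma. By replicate number the log2 differences were -0.42, -0.34 and -0.02. TNFSF9, which stimulates T cells through TNFRSF9, was the highest ligand, with 23.6, 20.7 and 34.4 FPKM in the controls and 21.5, 20.5 and 32.6 FPKM with MDM4. TNFSF13, known as APRIL and a ligand of B cell receptors, was at 2.74, 2.43 and 3.11 FPKM in the controls and at 2.32, 2.39 and 2.85 FPKM with MDM4. TNFSF12, known as TWEAK and the ligand of TNFRSF12A, was at 2.32, 1.96 and 3.68 FPKM in the controls and at 2.30, 1.81 and 3.47 FPKM with MDM4. For these 3 ligands replicate 3 was the highest library of each group. TNFSF12 and TNFSF13 are neighbours that share exons with the read-through transcript TNFSF12-TNFSF13, listed at 0 in every library, so the split of reads among the 3 is uncertain.

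Death receptors differed little between the groups. TNFRSF10B, a receptor of TRAIL that signals death, was at 38.5, 38.9 and 44.9 FPKM in the controls and at 40.3, 41.4 and 46.6 FPKM with MDM4. TNFRSF10A, the other TRAIL receptor of this kind, was at 25.8, 25.7 and 16.8 FPKM in the controls and at 27.5, 28.1 and 19.1 FPKM with MDM4. Both were higher with MDM4 in all 3 pairs, by 3.82% to 6.39% for TNFRSF10B and by 6.44% to 13.4% for TNFRSF10A, and their groups overlapped. TNFRSF1A, the widely expressed TNF receptor with a death domain, was at 37.4, 35.0 and 41.6 FPKM in the controls and at 34.8, 34.9 and 37.7 FPKM with MDM4. TNFRSF21 was the steadiest member, at 25.0, 24.8 and 23.5 FPKM against 24.9, 24.7 and 24.3 FPKM, with a pooled within-group SD of 0.04 on the log2 scale. TNFRSF25, the receptor of TNFSF15, was at 9.25, 7.91 and 6.96 FPKM in the controls and at 8.15, 7.21 and 7.53 FPKM with MDM4. Summed over the 5 death receptors, the level was 134 ± 1.84 FPKM in the controls and 136 ± 0.523 FPKM with MDM4 (SD, n = 3 each).

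The decoy receptor TNFRSF10D showed the largest difference of the 21 expressed members, and it rested on replicates 1 and 2. This receptor binds TRAIL but carries a truncated death domain. It was at 20.0, 18.8 and 33.5 FPKM in control replicates 1, 2 and 3 and at 33.8, 32.3 and 34.7 FPKM with MDM4. Control replicates 1 and 2 were thus low, whereas control replicate 3 lay within the range of the MDM4 libraries. The ratios of MDM4 to control for the same-numbered libraries were 1.69, 1.72 and 1.03. The log2 difference was 0.53 (SE 0.20, 95% interval 0.05 to 1.004, n = 3 and 3 libraries), with adjusted p = 0.99993 in limma. An exact two-sided permutation test of the 6 libraries gave p = 0.2, where 0.1 is the smallest value that 3 against 3 libraries allow. A fit with a replicate block gave an adjusted p of 0.249. Without control replicate 3 the log2 difference was 0.79, with adjusted p = 0.0233 in limma. The recovered reads behind these values numbered 2366 to 4773 per library, so counting error was small beside the gap.

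Within a library, the ratio of TNFRSF10D to the summed FPKM of TNFRSF10A and TNFRSF10B does not depend on how libraries are scaled. That ratio was 0.311, 0.291 and 0.543 in the controls and 0.499, 0.465 and 0.527 with MDM4. The MDM4 libraries lay close together, control replicates 1 and 2 lay below them, and control replicate 3 lay above them. The ratio of TNFRSF10A to TNFRSF10B separated the replicate numbers instead, at 0.670, 0.661 and 0.375 in the controls and at 0.682, 0.679 and 0.410 with MDM4.

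The other decoy and soluble receptors overlapped between the groups. TNFRSF10C, a TRAIL decoy anchored by a lipid, was at 2.90, 2.63 and 3.23 FPKM in the controls and at 4.14, 2.89 and 3.38 FPKM with MDM4. The 4 TNFRSF10 receptors were thus all higher with MDM4 in all 3 pairs, while TNFSF10 was lower in all 3, in replicate 3 at a ratio of 0.989. TNFRSF10C and TNFRSF10D are close copies of each other, and how reads that match both were counted is not given in the sources used here. TNFRSF11B, known as osteoprotegerin and secreted, was at 6.57, 6.80 and 12.0 FPKM in the controls and at 6.24, 5.60 and 10.7 FPKM with MDM4. It also binds TNFSF10, and unlike the TNFRSF10 receptors it was lower with MDM4 in all 3 pairs. TNFRSF6B, a secreted decoy for FASLG, TNFSF14 and TNFSF15, was at 85.5, 72.6 and 76.4 FPKM in the controls and at 85.7, 84.7 and 73.6 FPKM with MDM4. TNFRSF6B overlaps a read-through transcript of RTEL1, so its value is uncertain to that extent.

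**Figure D2:**
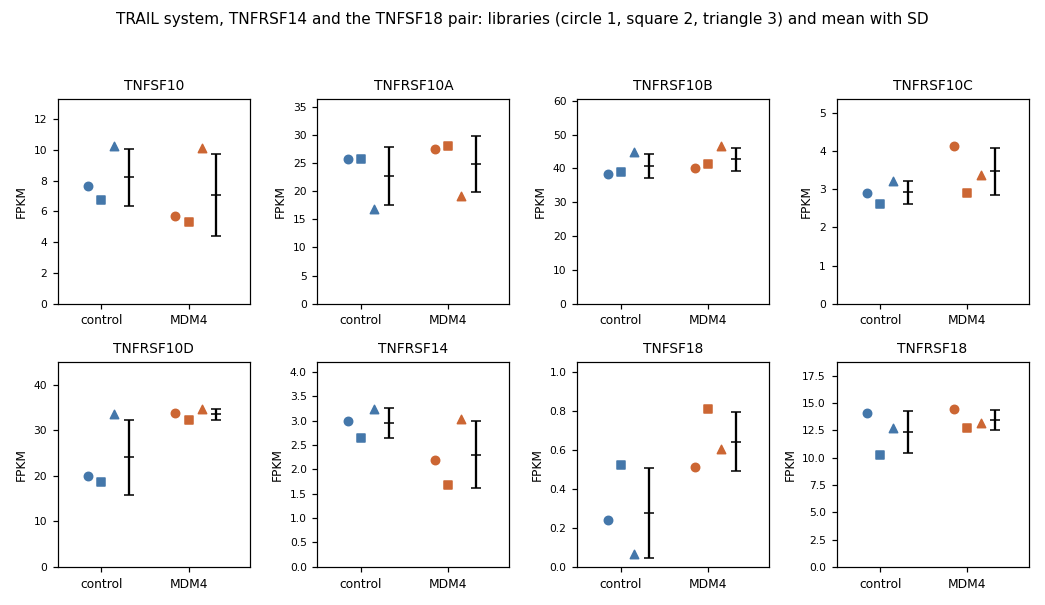
FPKM of TNFSF10 and the 4 TNFRSF10 receptors, of TNFRSF14, and of TNFSF18 with its receptor TNFRSF18. Each point is a library (circle, square and triangle for replicates 1, 2 and 3), and the bars give the mean and SD of 3 libraries. TNFRSF10D is at 20.0 and 18.8 FPKM in control replicates 1 and 2 and between 32.3 and 34.7 FPKM in the other libraries.

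Among the TRAF-binding receptors, 4 were lower with MDM4 in every pair on the FPKM scale and 1 was higher. TNFRSF14, which binds TNFSF14 and also the inhibitory receptor BTLA, was at 2.99, 2.63 and 3.23 FPKM in the controls and at 2.19, 1.68 and 3.04 FPKM with MDM4. MDM4 replicates 1 and 2 were below every control library, and MDM4 replicate 3 was within the control range. The log2 differences by replicate were -0.44, -0.62 and -0.09, and over all libraries the log2 difference was -0.38 (SE 0.23, 95% interval -0.91 to 0.15), with adjusted p = 0.99993 in limma. This gene was added to those given with full statistics after its values were seen. TNFRSF1B, the TNF receptor without a death domain, was at 55.6, 50.8 and 65.5 FPKM in the controls and at 43.6, 44.0 and 58.7 FPKM with MDM4, lower in the pairs by 21.7%, 13.3% and 10.3%.

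TNFRSF18, the receptor of TNFSF18 and known as a co-stimulatory receptor of T cells, was the member of this class that was higher in every pair. It was at 14.1, 10.2 and 12.7 FPKM in the controls and at 14.4, 12.7 and 13.2 FPKM with MDM4. The log2 difference was 0.13 (SE 0.13, 95% interval -0.18 to 0.44), with adjusted p = 0.99993 in limma, and it fell to 0.00 without control replicate 2. TNFRSF12A was at 202, 165 and 97.8 FPKM in the controls and at 161, 180 and 90.1 FPKM with MDM4, so that replicate 3 was the lowest library of each group. TNFRSF19 was at 5.20, 5.43 and 10.3 FPKM in the controls and at 5.10, 4.43 and 9.25 FPKM with MDM4. TNFRSF9, the receptor of TNFSF9, was at 2.15, 2.55 and 3.39 FPKM in the controls and at 1.98, 2.11 and 3.06 FPKM with MDM4.

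The remaining expressed receptors were near the expression minimum. TNFRSF13C, a B cell receptor of TNFSF13B, was at 1.01, 0.781 and 0.692 FPKM in the controls and at 0.676, 0.740 and 1.36 FPKM with MDM4, on 23 to 42 reads per library. TNFRSF11A, known as RANK and the receptor of TNFSF11, was at 0.615, 0.606 and 1.08 FPKM in the controls and at 0.574, 0.566 and 1.25 FPKM with MDM4. Their differences changed sign among the replicates.

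Over the family, 0 of the 21 expressed members passed the thresholds (limma, adjusted p under 0.05 and an absolute log2 difference over 1). The background was the same, with 0 of the 12884 expressed genes called (0%), MDM4 included at adjusted p = 0.161. At an unadjusted p under 0.05 the counts were 1 member, TNFRSF10D, and 222 genes. Limma-voom on the recovered reads likewise called 0 members and 0 genes, with 1 member and 237 genes at an unadjusted p under 0.05. In the fit with a replicate block, 2 genes were called over the whole table (0.0155%), MDM4 among them with adjusted p = 4.77e-05 in limma, and again 0 members. At an unadjusted p under 0.05 the block fit held 4 members and 1624 genes. No expressed member had groups that did not overlap, while over all expressed genes 3.1% had every MDM4 library above every control library and 3.76% had every one below.

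Gene by gene, the 95% intervals give the range of log2 differences that the limma fit of these libraries allows. For 20 of the 21 members the interval lay inside -1 to 1, and the exception was TNFRSF10D, whose upper bound was 1.004. Over all expressed genes 12125 of 12884 intervals lay inside -1 to 1. For 20 of 21 members the interval contained 0, as it did for 12662 of the 12884 genes. The pooled within-group SD of the members, on the log2 scale, had a median of 0.32, against 0.17 over all expressed genes. It was highest for TNFRSF19 (0.55), TNFRSF12A (0.54) and TNFRSF11A (0.51), which are members with a wide gap between replicate 3 and the other two replicates. The median log2 difference was -0.07 over the members and -0.01 over all expressed genes. The members' median turned positive without control replicate 3 (0.021) and without MDM4 replicate 2 (0.026), and was -0.18 without MDM4 replicate 3.

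**Figure D3:**
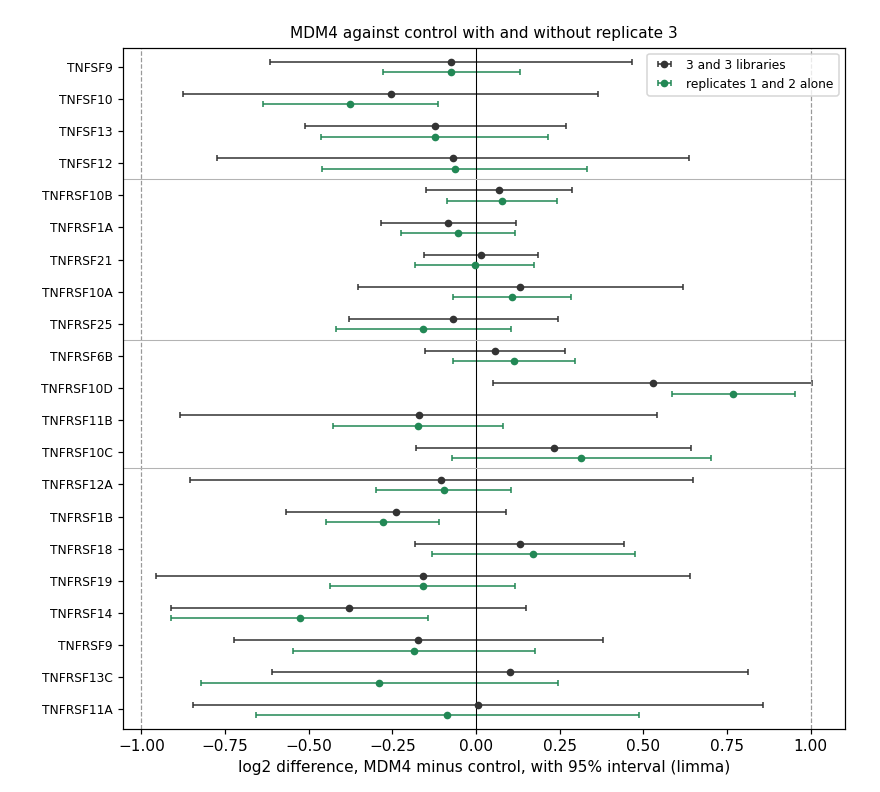
Log2 difference of each expressed member, MDM4 minus control, with its 95% interval from limma, for all 6 libraries (black) and for replicates 1 and 2 alone (green). Dashed lines mark a log2 difference of -1 and 1. Without replicate 3 the interval of TNFRSF10D runs from 0.58 to 0.95.

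Taken by replicate number, 10 members were lower with MDM4 in all 3 pairs and 5 were higher in all 3, and 6 differed in sign. These directions are those of FPKM and were not counted under other scalings. Some rest on ratios of MDM4 to control as close to even as 0.981 (TNFRSF19 in replicate 1) and can turn with the scaling. Over all expressed genes 18.6% were lower in all 3 pairs and 16.6% higher. The 10 lower members were the 4 expressed ligands with TNFRSF1A, TNFRSF1B, TNFRSF9, TNFRSF11B, TNFRSF14 and TNFRSF19. The 5 higher members were the 4 TNFRSF10 receptors and TNFRSF18. In replicates 1, 2 and 3 the members had median log2 differences of -0.09, -0.02 and -0.05, against -0.02, 0.00 and 0.00 over all expressed genes. Labels or protocols do not say whether the replicates came from separate cultures, so every p-value here measures the spread between these libraries, which may be technical. Correlations between the libraries did not tell numbers 1 and 2 apart, so those pairs rest on the numbers alone.

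**Figure D4:**
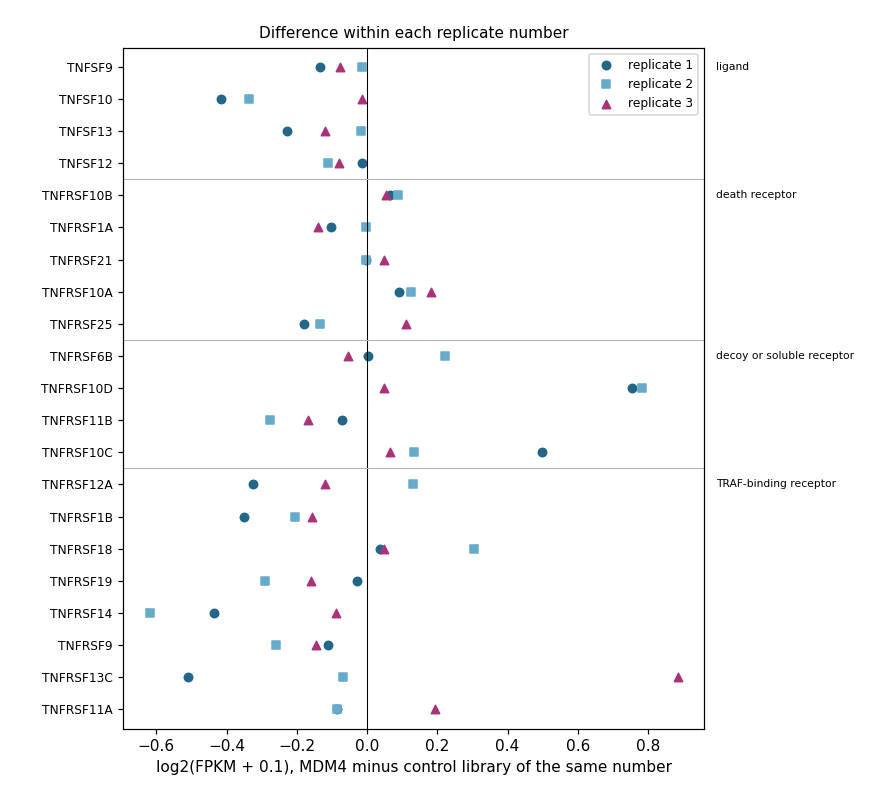
Difference in log2(FPKM + 0.1) between the MDM4 and the control library of the same number, for each expressed member. Circles, squares and triangles are replicates 1, 2 and 3. TNFRSF10D is at 0.76 and 0.78 in replicates 1 and 2 and at 0.05 in replicate 3, and TNFRSF13C is at 0.88 in replicate 3.

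With replicates 1 and 2 alone, 22 members were expressed, TNFSF18 being the additional one. None passed both thresholds in limma, against 37 of 12746 genes (0.29%), and 4 members and 1050 genes had an unadjusted p under 0.05. TNFRSF10D had a log2 difference of 0.77 (SE 0.08, 95% interval 0.58 to 0.95, n = 2 and 2 libraries) with adjusted p = 0.000619 in limma, past the threshold on p but under the threshold on size. It was the only member with an adjusted p under 0.05, as were 74 genes (0.581%). The next largest differences were 0.70 for TNFSF18 (adjusted p = 0.652), -0.53 for TNFRSF14 (adjusted p = 0.409) and -0.38 for TNFSF10 (adjusted p = 0.382). TNFSF18 stood on 8 and 14 reads in the controls and on 14 and 21 with MDM4. It met the expression minimum here through the MDM4 libraries, so the filter itself favoured a higher value with MDM4. In these 4 libraries 3 members lay wholly higher and 10 wholly lower with MDM4, where the background shares were 17.8% and 20.9%.

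The effect of MDM4 in replicate 3 was set against that in replicates 1 and 2 by a term in the fit, which rests on a single pair of libraries in replicate 3. None of the 21 members passed both thresholds in limma, against 23 genes (0.179%), and 2 members and 293 genes had an unadjusted p under 0.05. Limma-voom on the recovered reads called 0 members and 22 genes, with 1 member and 236 genes at an unadjusted p under 0.05. For TNFRSF10D the effect was lower in replicate 3 by a log2 value of -0.72 (SE 0.14, 95% interval -1.03 to -0.41), with adjusted p = 0.136. The adjusted p was 6.76e-06 without control replicate 1 and 5.54e-05 without control replicate 2, but 0.604 without MDM4 replicate 1 and 0.292 without MDM4 replicate 2, in fits that keep 1 residual degree of freedom. For TNFRSF13C the value was 1.17 (SE 0.42, 95% interval 0.25 to 2.09), with adjusted p = 0.99984, and for TNFSF10 it was 0.36 (SE 0.20), with adjusted p = 0.99984.

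The libraries that set TNFRSF10D apart were also those that set apart the summed level of a list of 20 interferon-stimulated genes. The summed level of that list was 590 and 612 FPKM in control replicates 1 and 2, and 179, 153, 162 and 168 FPKM in control replicate 3 and in MDM4 replicates 1, 2 and 3. TNFRSF10D was low in the same pair of control libraries and high in the other 4 libraries. TNFSF10, known to be induced by interferon, had its lowest levels in MDM4 replicates 1 and 2 but its highest in both libraries of replicate 3, so its order over the libraries was not that of the sum. Single genes of the list also departed from the sum. DDX58 was at 6.29, 7.04 and 5.18 FPKM in the controls and at 3.38, 3.54 and 5.41 FPKM with MDM4. Of the 18 list genes that were expressed, all 18 were lower with MDM4 in replicates 1 and 2. In replicate 3, 8 were lower. Over all 12884 expressed genes, 6932, 6369 and 6573 were lower in replicates 1, 2 and 3. The 18 had median log2 differences of -2.15, -1.84 and 0.02 by replicate number. Among the 18, XAF1 and IFI44 met the expression minimum only through the controls. Their means with MDM4 were 0.0861 and 0.213 FPKM, against 1.10 and 0.862 FPKM in the controls. The part of the list genes in the members' differences was not tested.

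Most members differed between replicate 3 and the other replicate numbers. A contrast of replicate 3 with replicates 1 and 2, averaged over the groups, was added after the data had been seen. In limma 13 of the 21 members had an adjusted p under 0.05, 11 higher in replicate 3 and 2 lower, where the background was 26.8% higher and 13.2% lower. No member also passed an absolute log2 difference of 1, against 335 genes (2.6%). TNFRSF19 was higher in replicate 3 by 0.95 (SE 0.10, adjusted p = 8.62e-05), a ratio of 1.95 in the controls and 1.94 with MDM4. TNFRSF11A was higher by 0.87 (SE 0.21) and TNFRSF11B by 0.84 (SE 0.10), and the latter stood at 1.80 times the mean of replicates 1 and 2 in the controls and at 1.81 times with MDM4. TNFRSF12A was lower by a log2 value of -0.91 (SE 0.08, adjusted p = 2.64e-05), and its level in replicate 3 was 0.533 times that of replicates 1 and 2 in the controls and 0.527 times with MDM4. TNFRSF10A was the other member that was lower, by a log2 value of -0.57 (SE 0.07, adjusted p = 0.000169).

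Of the 4 expressed ligands, 3 were higher in replicate 3. The log2 differences were 0.75 (SE 0.15) for TNFSF12, 0.69 (SE 0.10) for TNFSF10 and 0.64 (SE 0.08) for TNFSF9, all with adjusted p under 0.05 in limma, and 0.26 (SE 0.13, adjusted p = 0.138) for TNFSF13. TNFSF12 and its receptor TNFRSF12A therefore lay on opposite sides, the ligand higher and the receptor lower in replicate 3 of both groups. The median over all expressed genes was 0.09 in this contrast and moved to -0.01 under median-ratio scaling. That scaling also turned the split of genes with an adjusted p under 0.05 from 3453 higher and 1706 lower to 2204 higher and 2703 lower. Among the members it left 9 higher and 3 lower, and it changed the sign of TNFRSF18 and TNFRSF10C, neither of which had passed the threshold. Quantile normalization turned the sign of these and of TNFSF13 and TNFRSF13C, which had not passed either.

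**Figure D5:**
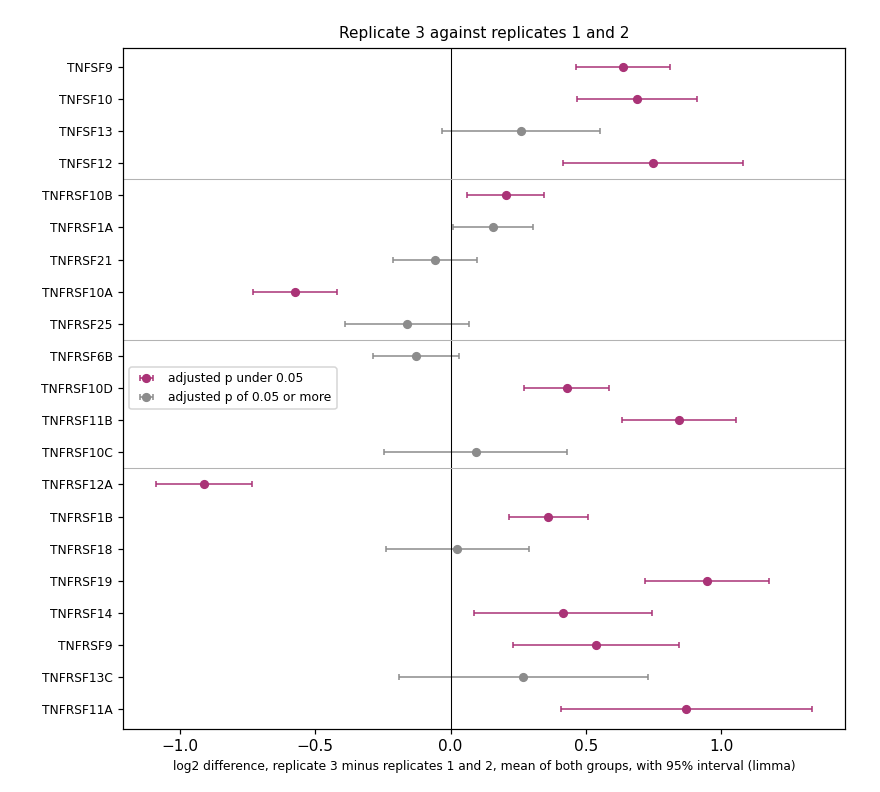
Log2 difference of each expressed member between replicate 3 and replicates 1 and 2, averaged over the control and MDM4 groups, with its 95% interval from limma. Purple points have an adjusted p under 0.05. TNFRSF12A and TNFRSF10A are the purple points below 0, and the other 11 are above 0.

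TNFSF18, the ligand of TNFRSF18, was just under the expression minimum with a mean of 0.460 FPKM. It was at 0.239, 0.525 and 0.0665 FPKM in the controls and at 0.514, 0.809 and 0.607 FPKM with MDM4. These values stood on 8, 14 and 2 reads in the controls and on 14, 21 and 15 reads with MDM4. The exact 95% Poisson interval, which covers counting error only, was 0.242 to 7.22 reads for the library with 2 reads and 7.65 to 23.5 reads for each library with 14. Every pair was higher with MDM4, and the groups overlapped because control replicate 2 lay above MDM4 replicate 1. In the limma fit of all 17189 genes above 0, where 0 genes (0%) were called and 415 had an unadjusted p under 0.05, the log2 difference was 1.16 (SE 0.46, 95% interval 0.08 to 2.24, on the log2 scale with a pseudocount of 0.1), with adjusted p = 0.99992. The exact two-sided permutation p was 0.2. Without control replicate 3, which held the 2 reads, the difference was 0.67.

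The other detected members lay between 0.00882 and 0.178 FPKM on average. TNFRSF8 held 12 to 33 reads per library, TNFSF14 17 to 42 reads, TNFSF15 15 to 35 reads and TNFSF4 4 to 21 reads. TNFSF13B, a survival factor of B cells, held 6, 16 and 10 reads in the controls and 4, 0 and 19 with MDM4. TNFRSF4, TNFRSF13B and TNFRSF17 stayed under 10 reads in every library. TNFSF8, TNFSF11 and the read-through TNFSF12-TNFSF13 were listed at 0 in all 6 libraries.

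Ligands of the family with other symbols were lower on average with MDM4, without passing the test. Of 7 such ligands 6 were expressed, and all 6 were lower on average with MDM4. LTA met the expression minimum only through the controls (mean 0.683 FPKM, against 0.452 FPKM with MDM4), so the filter itself favoured its place among them. The 6 had a median log2 difference of -0.33, against -0.01 over all expressed genes. In limma 0 were called and 1 had an unadjusted p under 0.05. By replicate number the median of the 6 was -0.54, -0.16 and -0.02. LTB, a lymphotoxin subunit, was the gene of this list whose groups did not overlap, at 18.2, 16.2 and 17.3 FPKM in the controls and at 9.93, 14.3 and 15.0 FPKM with MDM4. TNF, the ligand of TNFRSF1A and TNFRSF1B, overlapped at 3.56, 3.51 and 4.86 FPKM against 2.85, 1.60 and 4.98 FPKM. Of 8 receptors with other symbols 7 were expressed, with a median log2 difference of 0.00, 0 called and 0 with an unadjusted p under 0.05.

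Downstream of the receptors, 0 of the 13 death signalling genes and 0 of the 22 TRAF and NF-kB genes were called, with 1 gene of each at an unadjusted p under 0.05 in limma, and their median log2 differences were -0.06 and -0.04. In the TRAF and NF-kB list 4 genes had groups that did not overlap, 2 higher and 2 lower. Over all expressed genes 3.1% were wholly higher and 3.76% wholly lower. TRAF1, an adaptor itself induced by NF-kB, was at 2.11, 1.90 and 1.91 FPKM in the controls and at 1.20, 1.19 and 1.73 FPKM with MDM4. TRAF2, the adaptor of many receptors of the family, was at 22.5, 18.4 and 20.6 FPKM against 17.9, 18.0 and 17.2 FPKM. TAB3 and IKBKG, which act in the activation of the IkB kinase, lay the other way, at 7.88 to 8.93 FPKM against 9.05 to 9.99 FPKM and at 5.49 to 6.03 FPKM against 6.44 to 6.70 FPKM. Of 7 genes that restrain these signals or build linear ubiquitin, such as TNFAIP3, 0 were called and 0 had an unadjusted p under 0.05 in limma, and their median log2 difference was -0.10. Over the epithelial list, EPCAM and CDX2 were wholly lower and CDH1 wholly higher with MDM4, and in the interferon list IFIT3, IFI6, IFI27, MX1 and XAF1 were wholly lower, none past the thresholds in the fit of all 6 libraries. Of the 18 expressed interferon genes 16 had an unadjusted p under 0.05 there, 14 were called lower in replicates 1 and 2 alone, the 5 named ones among them, and 11 were called in the test of the effect in replicate 3 against that in replicates 1 and 2. Over all genes tested the matching counts were 222 of 12884, 37 of 12746 in either direction, and 23 of 12884. Of the 18 interferon genes, XAF1 and IFI44 met the expression minimum only through the controls.

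Some members that sit next to each other in the genome differed widely in level, while others were alike. Positions are from the GENCODE annotation of GRCh38 and are used for order only, since the build behind the FPKM values is not given in the sources used here. TNFRSF10B, TNFRSF10C, TNFRSF10D and TNFRSF10A lie in this order on chromosome 8, and TNFRSF10C had a mean of 3.20 FPKM between neighbours at 41.7 and 28.8 FPKM. On chromosome 1, TNFRSF18 (1203508 to 1206691, minus strand) had a mean of 12.9 FPKM, and TNFRSF4, next to it at 1211326 to 1214138, had a mean of 0.0987 FPKM. TNFRSF14 lies farther along at 2555639 to 2565382 on the plus strand. TNFRSF8 and TNFRSF1B are neighbours at 12063377 to 12144207 and 12167003 to 12209228, with means of 0.178 and 53.0 FPKM. The ligands TNFSF18 (173039960 to 173050963) and TNFSF4 (173183734 to 173207313) are also neighbours on chromosome 1, and both were under the minimum. On chromosome 17 the adjacent TNFSF12 and TNFSF13 had means of 2.59 and 2.64 FPKM.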

How the data were processed

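RNA enriched with oligo(dT) beads from 3 control and 3 MDM4 libraries was sequenced, and the authors deposited FPKM values for 19225 genes. The aligner, counter, annotation and genome build are not given in the sources used here. The table names its columns by a letter and a number. G was read as control, M as the group that the labels call exercised, here MDM4, and the numbers as replicates. No label states this reading, and MDM4's own level went with it. Whole reads were recovered from the FPKM steps for 17189 of 17189 genes above 0. This recovery was checked on simulated reads, where 97.7% of 2820 genes were recovered exactly, so some recovered reads may be wrong. Tests used limma 3.58.1 in R 4.3.3 on log2(FPKM + 0.1), over the 12884 genes that averaged 0.5 FPKM or more. P-values were adjusted over all of these by the Benjamini-Hochberg method. A gene was called at an adjusted p under 0.05 with an absolute log2 difference over 1. The deviations of same-numbered libraries from their group means correlated at r = 0.458, 0.451 and 0.783, and a fit with a replicate block was run. Control replicate 1 correlated as well with MDM4 replicate 2 (r = 0.462), while replicate 3 of each group correlated negatively with the other numbers. The correlations set replicate 3 apart but did not tell numbers 1 and 2 apart. Pairing of these libraries by number is thus not shown. Deviations from a group mean cancel out within the group, which by itself favours negative correlations with an odd library. The members and gene lists were chosen with earlier results of these data known. Expressed members are named with every library's level, and full statistics are given for TNFSF10, TNFSF18, TNFRSF18 and members with an absolute log2 difference over 0.5 or without overlap. Other genes are named from fixed lists, mostly where their groups did not overlap or where they pair with such a member. Some genes, among them cell type markers, DDX58, IFI44, LTA and TNF, are named outside this rule.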

Additional observations from a re-analysis of the deposited data

Results flagged for a closer look

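The effect of MDM4 differed between replicate 3 and replicates 1 and 2 for 4 genes that are named beside the family. These flags come from the term of the limma fit, which holds a single pair of libraries in replicate 3. For MDM4 the log2 effect was lower in replicate 3 by a value of -1.35 (adjusted p = 0.00166). For IFI6, IFI27 and MX1 the log2 effect was less negative in replicate 3, by 3.25 (adjusted p = 5.07e-07), 2.19 (adjusted p = 0.00128) and 2.87 (adjusted p = 1.31e-05). The fall with MDM4 was thus smaller in replicate 3. In replicates 1, 2 and 3 the log2 differences were -3.40, -3.34 and -0.12 for IFI6, -2.39, -2.83 and -0.42 for IFI27, and -2.95, -2.98 and -0.10 for MX1. IFI6 was at 162, 170 and 21.3 FPKM in the controls and at 15.2, 16.7 and 19.6 FPKM with MDM4. The part of these 4 genes in the differences of the family members was not tested.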

How the results depend on the processing

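The count of called members stayed at 0 for MDM4 against control under each alternative that was run: other pseudocounts, filters, scalings, limma without trend, the replicate block, voom, replicates 1 and 2 alone, each library left out, and the adjusted p alone. It stayed at 0 as well for the effect in replicate 3. Over all genes the count was 0 in the fit reported, 2 with the replicate block, 14 in voom with the replicate block, 37 with replicates 1 and 2 alone, and 0 to 16 when single libraries were left out (16 without control replicate 3, 1 without MDM4 replicate 3). The replicate block changed no other call. The median log2 difference of the expressed members ranged from -0.18 without MDM4 replicate 3 to 0.026 without MDM4 replicate 2, and its sign also turned without control replicate 3 (0.02). Members whose groups did not overlap numbered 0 in the fit reported, where 399 of 12884 genes were wholly higher and 484 wholly lower. There was 1 under median-ratio scaling (TNFRSF10D), against 436 wholly higher and 466 wholly lower genes. Quantile normalization also gave 1 (TNFRSF14), against 454 and 430 genes. Replicates 1 and 2 alone gave 13, against 2274 and 2668 of 12746 genes. With single libraries left out the count was 0 to 10. It was 10 without MDM4 replicate 3, against 1276 wholly higher and 2084 wholly lower of 12832 genes. It was 2 without control replicate 3, against 1367 and 1102 of 12838 genes. It was also 2 without MDM4 replicate 2, against 727 and 812 of 12912 genes. In the contrast of replicate 3 with replicates 1 and 2, 1 member passed both thresholds without a filter, against 370 of 17189 genes. Under median-ratio scaling 1 member passed both, against 293 of 12884 genes. The adjusted p alone was passed by 13 members, against 5159 of 12884 genes. The cause of these shifts was not tested. No log2 difference of TNFSF10, TNFSF18, TNFRSF18, TNFRSF10D or TNFRSF14 reversed its sign, but with single libraries left out TNFSF10 ran from -0.08 (without MDM4 replicate 2; -0.09 without control replicate 3) to -0.55 (without MDM4 replicate 3), TNFRSF14 from -0.18 (without MDM4 replicate 2) to -0.59 (without MDM4 replicate 3), and TNFRSF18 from 0.00 (without control replicate 2) to 0.23 (without control replicate 1). Replicate 3 libraries could not be left out of the replicate 3 term. TNFSF18 passed the filter on low values in only a few settings, and there through the MDM4 libraries. Low members such as TNFSF18 rest on few reads, and 3 libraries a group limit every test.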
